A study of Mus musculus with 18 samples.

Results

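Gene expression was compared between organoids taken while the GSK3 inhibitor CHIR99021 was in the medium and organoids taken on the next 2 days, after it had been left out. The comparison used 9 of the 18 libraries of a mouse intestinal organoid series, 3 from day 1 of culture and 6 from days 2 and 3 (3 from each), chosen by the labelled day alone. Intestinal organoids are closed epithelial structures that grow from stem and progenitor cells in gel. All libraries came from wild-type C57BL/6 animals aged 8 weeks, and each pooled 30 wells. The medium of every group held EGF, Noggin (both at 100 ng/ml) and R-spondin at 500 ng/ml. From day 0 to day 1 it also held 20% Wnt3a-conditioned medium, the ROCK inhibitor Y-27632 at 10 µM and CHIR99021 at 3 µM. From day 1 to day 3 the Wnt3a-conditioned medium and Y-27632 stayed and CHIR99021 was gone. The days and the removal of CHIR99021 changed together, so the effect of the one cannot be told apart from that of the other. Organoid lines are named in the titles by mouse. Mouse 1 gave replicate 1 and mouse 3 gave replicate 3 on each of these days, while replicate 2 is titled mouse 1 on days 1 and 2, and mouse 2 on day 3 as on days 0, 4 and 5. Whether the titles of days 1 and 2 hold a slip cannot be told from the labels, and values that use the line rest on them. Replicate 1 of each day, 3 of the 9 libraries, had no DNase treatment.

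GSK3 is part of the complex that marks beta-catenin for destruction. An inhibitor of GSK3 lets beta-catenin gather and, together with TCF factors in the nucleus, switch on Wnt target genes, several of which feed back on the pathway. Wnt3a and R-spondin act further up, at the receptors. In the intestinal crypt, Wnt signalling keeps stem cells dividing and Paneth cells in place, and cells that leave its reach become enterocytes, goblet cells or enteroendocrine cells. ROCK is a kinase that drives the contraction of actin and myosin.

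The 250 bases before the start site of 3 genes are shown for the patterns described here, for the following reasons. Acta1 had the lowest p of the genes that were lower after day 1. Chgb had the lowest p of the enteroendocrine genes, though not the largest difference. Sp5, a transcription factor switched on by beta-catenin, had the lowest p among the Wnt targets (Sp5 was chosen after its values were seen). Sequences are from RefSeq on GRCm38.p6, 5′ to 3′ on the strand of the gene. Capitals mark the CArG box (the binding motif of serum response factor) for Acta1, TGACGTCA (the cAMP response motif) for Chgb and, for Sp5, the TCF motif, taken as CTTTG followed by AA, AT, TA or TT. Every motif was searched on both strands.
Acta1: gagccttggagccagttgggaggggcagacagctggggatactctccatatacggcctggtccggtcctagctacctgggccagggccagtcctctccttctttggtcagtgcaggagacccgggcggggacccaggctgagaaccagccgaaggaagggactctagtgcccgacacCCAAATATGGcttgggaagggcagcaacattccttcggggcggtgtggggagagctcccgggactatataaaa
Chgb: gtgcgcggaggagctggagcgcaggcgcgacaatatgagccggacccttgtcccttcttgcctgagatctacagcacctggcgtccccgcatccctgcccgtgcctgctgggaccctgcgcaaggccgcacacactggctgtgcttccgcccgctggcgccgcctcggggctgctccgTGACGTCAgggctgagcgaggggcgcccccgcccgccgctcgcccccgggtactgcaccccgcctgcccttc
Sp5: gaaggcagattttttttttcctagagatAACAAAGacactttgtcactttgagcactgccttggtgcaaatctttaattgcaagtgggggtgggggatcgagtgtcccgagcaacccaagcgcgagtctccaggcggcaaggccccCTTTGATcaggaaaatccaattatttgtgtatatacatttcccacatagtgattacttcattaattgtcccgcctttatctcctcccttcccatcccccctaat
The window of Acta1 is chr8:123894776-123895025 on the minus strand, that of Chgb chr2:132781392-132781641 and that of Sp5 chr2:70474673-70474922, both on the plus strand. Of the 32851 promoter windows of this length, 1.47% held a CArG box, 1.55% the cAMP response motif and 14.8% a TCF motif. By gene these shares were 1.62%, 1.77% and 16.8%. The cAMP response motif was in the windows of 3 of the 16 enteroendocrine genes with a promoter in the table, which were Chgb, Scg2 and Sst (18.8%). A TCF motif was in those of 2 of 11 Wnt targets, Sp5 and Tiam1 (18.2%), about the share of all genes. Of the 12 genes named below as lower, 9 had a promoter in the table, and Acta1 and Myadm held a CArG box (22.2%). A match of letters is a description and does not show a bound site.

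The libraries held an implied 44260000 to 53930000 reads, so that an RPKM of 1 stood for 44.3 to 53.9 reads per kilobase. These values hold if no scaling factor entered the RPKM, which the sources used here do not give. They did not sort by day. The first principal component carried 48.7% of the variance and set day 3 replicate 1 (51.2) and day 2 replicate 2 (27.5) apart from the others (-26.4 to 7.4), and day 1 replicate 1 correlated best with day 2 replicate 1 (r = 0.985, across genes, which are not independent replicates). The libraries were epithelial. Epcam, an adhesion molecule of epithelia, was between 350 and 490 RPKM in all 9, Cdh1 (E-cadherin) between 157 and 188, the intestinal transcription factor Cdx2 between 61.3 and 97.6 and Vil1, villin of the brush border, between 178 and 392. The summed level of 15 mesenchymal markers was 1.23 to 1.61 RPKM at day 1, 0.742 to 1.64 at day 2 and 0.882 to 2.54 at day 3, with 3 of them at 0 in all libraries. That of 16 immune markers was 1.31 to 2.99 RPKM, with 5 at 0.

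No gene passed the test. Of 10648 genes tested with limma on log2(RPKM + 1), 0 reached an adjusted p under 0.05 (0%) for days 2 and 3 against day 1, and the lowest adjusted p was 0.301. At an unadjusted p under 0.05 there were 533 genes (5.01% of those tested), 336 of them higher (3.16%) and 197 lower (1.85%) at days 2 and 3. The median log2 difference over all tested genes was -0.02, and 46.2% of genes lay above 0. For 230 genes (2.16%) all 6 later values were above all 3 values of day 1, and for 129 (1.21%) all 6 were below. The values that follow are therefore levels and differences that did not pass the threshold over all genes, unless another fit is named. In a model over all 18 libraries, which estimates the spread from every day, 6 genes passed, with Isx, Dmbt1, Lrig3, Acadsb and Gmds higher and Acta1 lower. With the organoid line as a factor 5 passed, with Dmbt1 and Lipg higher and Acta1, Cybrd1 and Serpinb5 lower. Line 2 has 1 library here, day 3 replicate 2, so that factor, taken from the titles as they stand, takes it out of the comparison. Leaving this library out gave 6 calls (Isx, Dmbt1, Lipg, Rep15 and Gm1123 higher, Acta1 lower). Without day 1 replicate 1 there was 1 call, secretin (Sct), which was lower. Cybrd1, Serpinb5, Gm1123 and Sct were named for these calls after their values were seen.

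**Figure D1:**
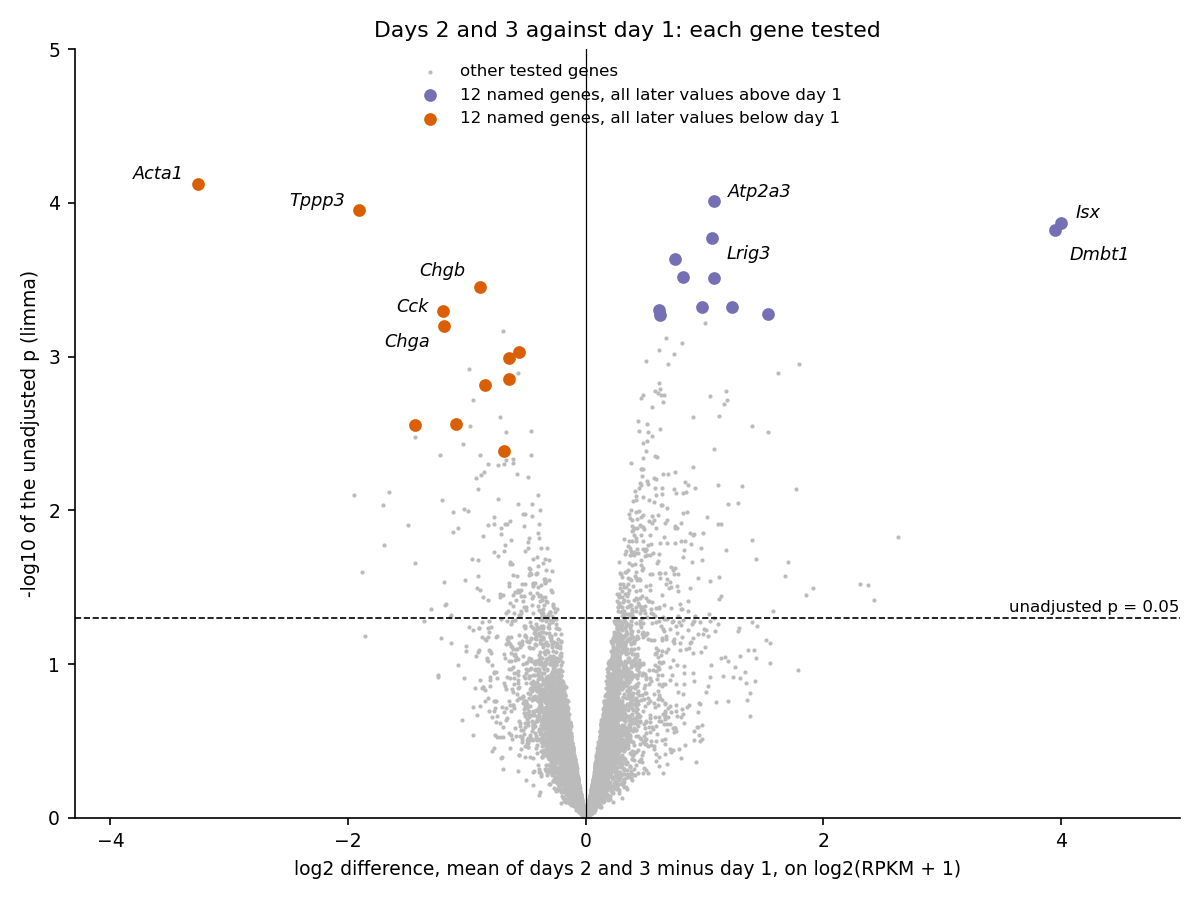
Each point is 1 of the 10648 genes tested. The x axis is the log2 difference between the mean of days 2 and 3 and day 1, on log2(RPKM + 1), and the y axis is the negative log10 of limma's unadjusted p. Isx and Dmbt1 lie at the far right, at 4.00 and 3.95, and Acta1 at the far left, at -3.26.

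Of the 230 genes whose later values were all above day 1, Isx and Dmbt1 had the largest differences. Isx is a homeobox transcription factor of the intestine (Entrez 71597, chr8:74873174-74893506 in mm10). It was at 0.393, 1.56 and 0.173 RPKM in the 3 libraries of day 1, at 5.31, 12.1 and 36.3 at day 2 and at 83.8, 15.7 and 67.7 at day 3. Day 1 was thus near 0 and every later library was above it, with day 3 replicate 2 the lowest of its day. The log2 difference was 4.00 ± 0.64 (SE, adjusted p = 0.301, and 0.00793 in the model over 18 libraries). Dmbt1, a secreted scavenger receptor protein of mucosal surfaces (Entrez 12945, chr7:131032057-131121628), was at 15.6, 11 and 7.32 RPKM at day 1, at 126, 380 and 72.4 at day 2 and at 440, 71.7 and 323 at day 3. Its 6 later values spread over a wide range, yet the lowest of them was above the highest of day 1. The log2 difference was 3.95 ± 0.64 (adjusted p = 0.301, and 0.00793 over 18 libraries). In the libraries of day 3, both genes were lowest in replicate 2, the library titled mouse 2.

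The other genes named as higher had smaller differences with tighter replicates. Atp2a3, a calcium pump of the endoplasmic reticulum, had the lowest p of them and was at 1.79, 2.27 and 3.36 RPKM at day 1, at 5.42, 4.83 and 5.66 at day 2 and at 6.45, 6.81 and 8.73 at day 3 (log2 difference 1.08 ± 0.17, adjusted p = 0.301). Lrig3, a membrane protein with leucine-rich and immunoglobulin-like repeats, was at 4.27 ± 0.765 RPKM (SD, n = 3) at day 1 and 10.1 ± 2.09 (n = 6) after it, a log2 difference of 1.06 ± 0.17. Gmds makes the precursor of GDP-fucose, the donor of fucose for glycans, and was at 44.2 ± 3.57 and 79.1 ± 10.9 RPKM (log2 difference 0.82 ± 0.14). Acadsb, which breaks down branched short-chain acyl-CoA, was at 3.61 ± 1.22 and 8.65 ± 1.74 RPKM. Lpin1, a phosphatidate phosphatase, was at 2.4 ± 0.557 and 5.76 ± 1.17 RPKM. Lipg, the endothelial lipase gene, was at 1.84 ± 0.406 and 5.83 ± 1.86 RPKM. Aldh1b1, a mitochondrial aldehyde dehydrogenase, had the highest later mean of the 12 genes, with 103 ± 44.1 RPKM at day 1 and 291 ± 77.8 after it (log2 difference 1.53 ± 0.29, adjusted p = 0.357). The fatty acid desaturase relative Fads3, the acetyl-CoA synthetase Acss2 and Plekha5, a protein with a pleckstrin homology domain, had log2 differences of 0.75, 0.62 and 0.62.

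Acta1 had the largest difference among the 129 genes whose later values were all below day 1, and the lowest p of all genes. It encodes skeletal muscle alpha-actin (Entrez 11459, chr8:123891758-123894775). It was at 143, 293 and 340 RPKM at day 1, at 17.2, 24.9 and 42.8 at day 2 and at 17.1, 54.3 and 12.1 at day 3. The lowest library of day 1 was above the highest later one, and the mean of day 1 was 9.22 times that of days 2 and 3. The log2 difference was -3.26 ± 0.48 (adjusted p = 0.301, 0.0318 over 18 libraries and 0.0312 with the line as a factor). Other muscle genes were near 0. Desmin (Des) was at 0.0283 RPKM or below in all 9 libraries, Myl1 at 0.0168 or below and Tagln at 0.0958 or below. The other muscle actins share much of their coding sequence with Acta1, and how reads that match several genes were assigned is not given in the sources used here. Acta2, Actc1 and Actg2 were at most at 0.0516, 0.252 and 0.0445 RPKM.

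Next by p came Tppp3, a tubulin-binding protein, at 11.5, 6.16 and 4.47 RPKM at day 1, at 2.89, 0.911 and 1.54 at day 2 and at 0.522, 1.06 and 0.474 at day 3 (log2 difference -1.91 ± 0.30, adjusted p = 0.301). All later values were below day 1, and days 2 and 3 overlapped. Chgb, Cck and Chga, 3 genes of enteroendocrine cells, followed and are described with their cell type. Tpm4, a tropomyosin of non-muscle cells, was at 75.2, 73.4 and 72 RPKM at day 1 and between 35.5 and 57.5 in the later libraries (log2 difference -0.65 ± 0.14). Rhob, a small GTPase that acts on actin, was at 8.34 ± 1.29 and 4.29 ± 1.31 RPKM. Rhou, first described as a gene that responds to Wnt, was at 21.9 ± 3.56 and 13.3 ± 2.74 RPKM. Tubb2b, a beta-tubulin, was at 23.7 ± 7.31 and 8.46 ± 3.64 RPKM, a log2 difference of -1.44 ± 0.35. Fam84a was at 20.4 ± 4.74 and 9.38 ± 3.2 RPKM. The membrane protein genes Xk and Myadm had differences of -0.56 and -0.64.

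**Figure D2:**
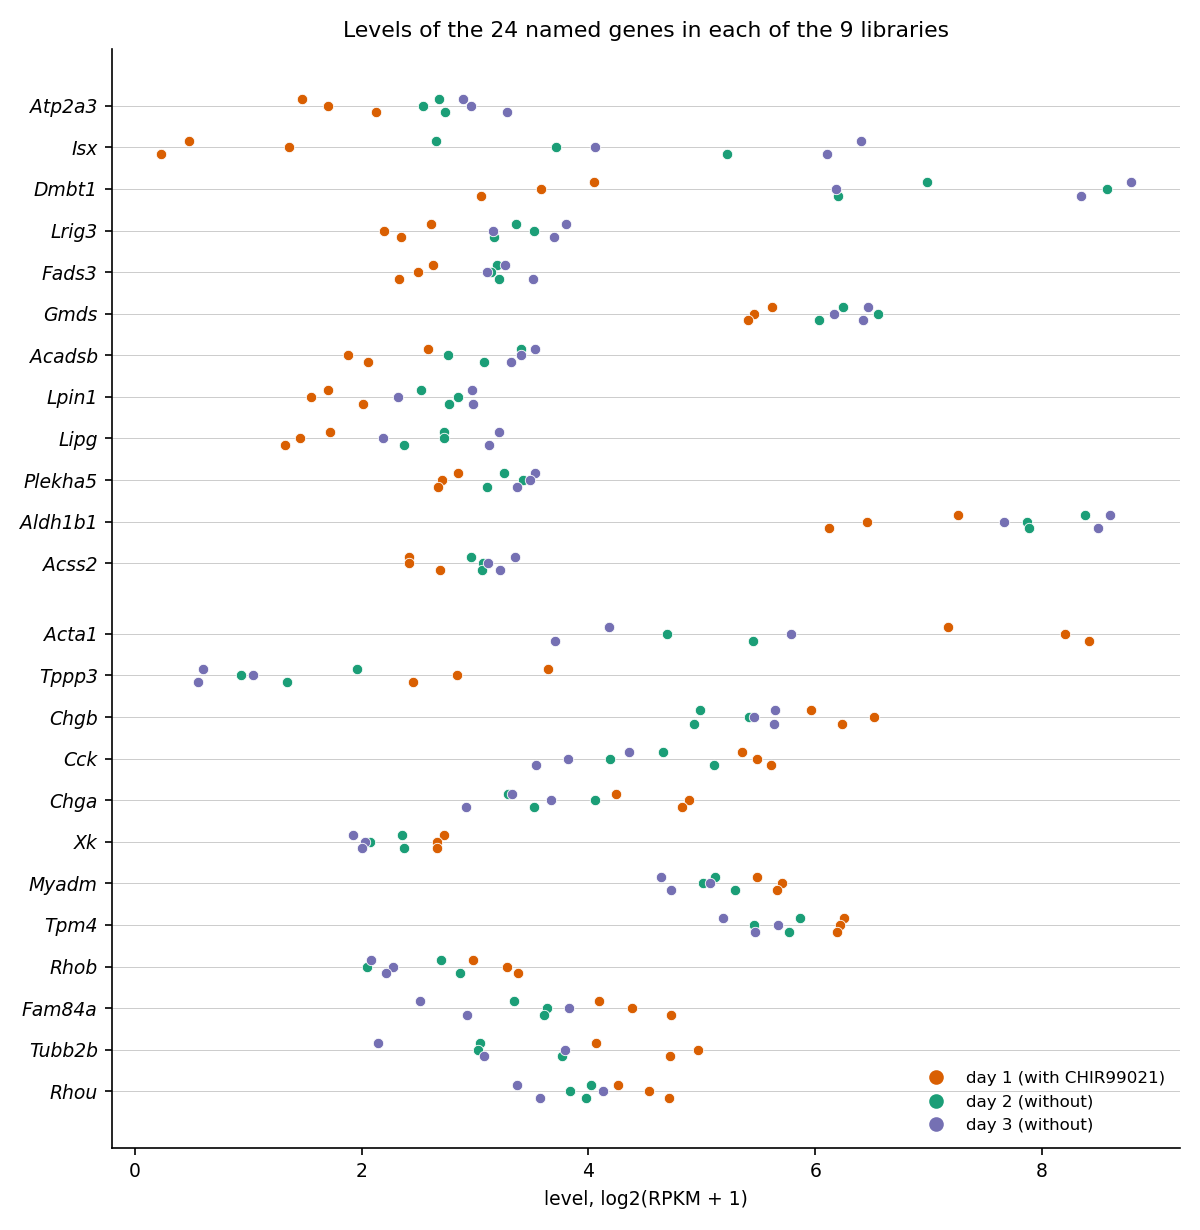
Levels of the 12 named genes that were higher (upper block) and the 12 that were lower (lower block) at days 2 and 3, as log2(RPKM + 1) on the x axis. Each point is 1 library, coloured by day. In every row the 3 points of day 1 lie on 1 side of the 6 later points, which is how these genes were chosen.

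Wnt targets were described from a list of 32 target and feedback genes, of which 19 were tested. None passed. At an unadjusted p under 0.05 there were 4 lower and 1 higher, 15 of the 19 differences were below 0 and the median log2 difference was -0.24, against -0.02 for all genes. Of all genes, 1.85% were lower and 3.16% higher at that p, and 46.2% lay above 0. Sp5 was at 2.19, 2.36 and 3.45 RPKM at day 1, at 2.41, 0.693 and 1.67 at day 2 and at 0.786, 0.785 and 1.14 at day 3. Its levels of day 3 were all below those of day 1, while day 2 replicate 1 overlapped them (log2 difference -0.74, adjusted p = 0.707). Axin2, the scaffold protein that returns beta-catenin to its destruction complex and a common readout of the pathway, was at 23.6, 24.4 and 16.3 RPKM at day 1, at 24.5, 3.44 and 29 at day 2 and at 8.66, 10.3 and 20.6 at day 3. The groups overlapped, and 1 library of day 2 was far below the rest (log2 difference -0.64 ± 0.56, adjusted p = 0.961).

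Ascl2, Tcf7 and Ets2 were the 3 targets whose 6 later values were all below day 1, where 1.21% of all genes were. For 2 targets, Cdx1 and Kremen1 (log2 difference 0.12 ± 0.11), all 6 were above, where 2.16% of all genes were. Kremen1 was named for this after its values were seen. Ascl2, a transcription factor of crypt base stem cells, was at 8.88, 11.3 and 8.91 RPKM at day 1, at 4.85, 0.713 and 7.53 at day 2 and at 1.91, 8.16 and 3.63 at day 3 (log2 difference -1.19 ± 0.50, adjusted p = 0.961). Tcf7, a partner of beta-catenin on DNA, was at 6.43, 7.61 and 7.15 RPKM at day 1 and between 1.45 and 5.7 later (log2 difference -0.89 ± 0.35). Ets2, an ETS family transcription factor, was at 46.4 ± 3.4 and 35.8 ± 6.03 RPKM (-0.38 ± 0.16). Rnf43, a ligase that removes Wnt receptors from the membrane, was at 18.9, 23.8 and 17.1 RPKM at day 1 and between 5.25 and 19.8 later, with 1 later value inside the range of day 1 (-0.72 ± 0.32).

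Most of the remaining targets overlapped more. Sox9, Cd44 and Ephb2, all genes of the lower crypt, had log2 differences of -0.78 ± 0.43, -0.63 ± 0.46 and -0.24 ± 0.24. For Myc, a driver of growth, the mean was 58.2 ± 8.53 RPKM at day 1 and 57 ± 25.1 after it, and for Ccnd1, cyclin D1, 33.2 ± 8.89 and 52 ± 31.9 RPKM. Both had their 2 highest values in day 2 replicate 3 and day 3 replicate 2 and low values in day 3 replicate 1 (25.8 and 15.4 RPKM). Rgmb and Smoc2 had differences of -0.16 ± 0.32 and 0.62 ± 0.47. The signs of Myc, Rgmb, Ephb2 and Smoc2 depended on which libraries or weights were used. Cdx1, an intestinal transcription factor that Wnt also drives, went the other way from most of the list, with 110, 102 and 84.7 RPKM at day 1 and 114 to 145 in the later libraries (0.36 ± 0.14, adjusted p = 0.921).

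Much of the later spread lay in 2 libraries, day 2 replicate 2 and day 3 replicate 1, the same ones that stood apart on the first component. As the mean of log2(RPKM + 1) over the 19 Wnt targets, centred per gene over the 9 libraries, they were at -0.77 and -0.61. The other 4 later libraries were at 0.22, 0.40, 0.10 and 0.03, and day 1 was at 0.33, 0.35 and -0.05. The same 2 libraries were the highest in the mean of 34 enterocyte markers (0.99 and 1.11, against -0.74 to 0.54 in the others) and the lowest in S phase genes (-0.53 and -0.64, against -0.15 to 0.45). Without both, the median log2 difference of the Wnt targets was -0.02 and 0 genes passed over the whole table (lowest adjusted p = 0.347, 501 at an unadjusted p under 0.05). The part of these libraries in the other results was tested only in this way.

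**Figure D3:**
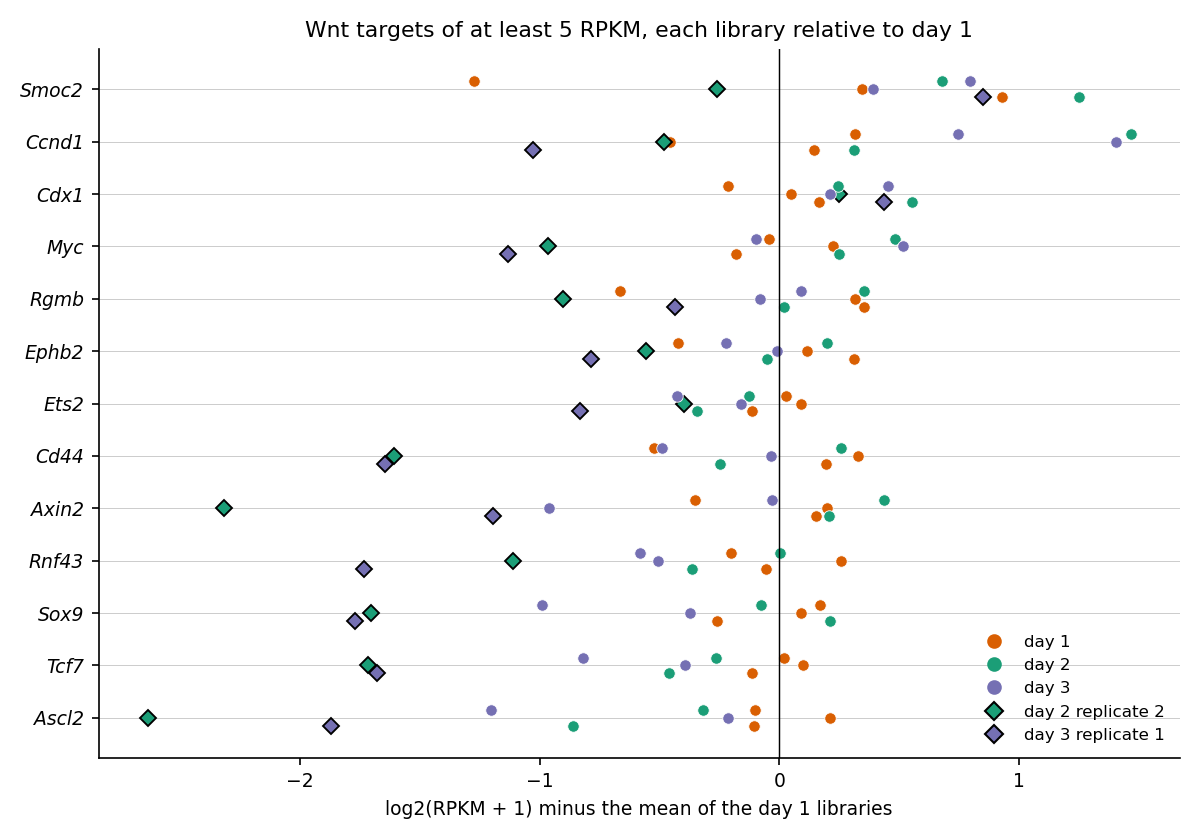
The 13 Wnt targets with a mean of at least 5 RPKM at any of the 3 days, in order of their difference. The x axis is log2(RPKM + 1) minus the mean of the 3 libraries of day 1. Points are libraries coloured by day, and diamonds mark day 2 replicate 2 and day 3 replicate 1, which lie at the low end for most genes, with Cdx1 and Smoc2 as exceptions.

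The machinery of the pathway showed a median near 0. Of 31 receptors, ligands and components of the Wnt pathway, 23 were tested, with a median log2 difference of 0.01 and 0 genes at an unadjusted p under 0.05 in limma. The largest was Fzd5, a Wnt receptor of Paneth cells, at 13.8 ± 2.85 RPKM at day 1 and 22.5 ± 7.46 later (0.62 ± 0.28). The co-receptors Lrp5 and Lrp6 had differences of 0.22 ± 0.19 and 0.19 ± 0.17. Of 19 tested stem cell markers, 13 differences were below 0 and the median was -0.16, with a range of -0.45 to 0.03 over the alternative fits. Olfm4, a secreted protein of crypt base cells and a Notch target, was at 9.16, 5.33 and 0.783 RPKM at day 1, at 22.7, 1.77 and 57.5 at day 2 and at 71.3, 40.5 and 61.7 at day 3. All libraries of day 3 were above day 1, while day 2 replicate 2 was inside its range (2.62 ± 0.88, adjusted p = 0.77). Lgr5, a stem cell marker that is also on the Wnt target list, was low, at 2.64, 2.36 and 0.262 RPKM at day 1. It was between 0.11 and 1.04 RPKM in the later libraries, with overlap (-0.569 ± 0.345). Lgr5 was named after its values were seen.

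Notch signalling sets the choice between absorptive and secretory cells, with Hes1 as its main target in the crypt. Of 15 tested Notch genes, the median log2 difference was 0.00. Nrarp and Maml1 (0.188 ± 0.105) were higher in all 6 later libraries, where 2.16% of all genes were. Nrarp, a target that feeds back on the pathway, was at 4.33, 2.97 and 3.47 RPKM at day 1, at 8.33, 4.93 and 7.08 at day 2 and at 7.11, 7.08 and 7.99 at day 3 (0.81 ± 0.17, adjusted p = 0.415). Its later level was 1.97 times that of day 1. Hes1 was at 21 ± 3.76 and 26.8 ± 3.65 RPKM (0.34 ± 0.16), and Lfng, which adds sugars to Notch, at 5.75 ± 2.41 and 3.18 ± 1.92 RPKM.

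Enteroendocrine genes lay mostly below day 1 at days 2 and 3. Of 19 tested markers of these hormone-secreting cells, 10 were lower and 1 higher at an unadjusted p under 0.05, where 1.85% and 3.16% of all genes were, and 6 had all later values below day 1 (1.21% of all genes). None passed over all genes. The median log2 difference was -0.77, with a range of -0.95 to -0.59 over the alternative fits. In bulk libraries, fewer cells of a type and less RNA per cell cannot be told apart. Chgb, a granin protein of hormone granules, was at 61.2, 90.5 and 74.5 RPKM at day 1, at 30.7, 41.6 and 29.6 at day 2 and at 49.1, 43.1 and 48.6 at day 3 (-0.89 ± 0.16, adjusted p = 0.357). All 6 later values were below the lowest of day 1, and day 3 was above day 2. Chga, the granin used most as a marker of these cells, was at 18, 28.6 and 27.4 RPKM at day 1, at 8.81, 15.7 and 10.4 at day 2 and at 9.05, 11.7 and 6.56 at day 3 (-1.19 ± 0.23, adjusted p = 0.375).

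The hormone genes were not alike. Cck, cholecystokinin, was at 39.9, 43.8 and 47.8 RPKM at day 1, at 24.3, 17.3 and 33.5 at day 2 and at 19.5, 13.1 and 10.6 at day 3 (-1.20 ± 0.23, adjusted p = 0.357), so that it was lowest at day 3. Cpe, which trims prohormones, was at 4.66 ± 0.763 and 2.5 ± 0.427 RPKM (-0.69 ± 0.14). Secretin was at 4.74, 40.7 and 38.3 RPKM at day 1 and between 3.24 and 7.37 RPKM in the later libraries, and its difference of -1.95 lay in replicates 2 and 3 of day 1. Without day 1 replicate 1 it was -2.89 (adjusted p = 0.0374). Gip, an incretin hormone, had a difference of 0.17 ± 0.37. Of the 19 differences 14 were below 0 and 5 above. The 1 gene higher at an unadjusted p under 0.05 in limma was Neurog3, the transcription factor of the youngest enteroendocrine cells (0.92 ± 0.41). It was at 3.27 ± 2.13 RPKM at day 1 and 6.76 ± 3.27 later. The transcription factors Insm1 and Nkx2-2 were also above 0, at 0.146 ± 0.242 and 0.317 ± 0.209. The summed level of the 34 list members was 204 to 273 RPKM at day 1 and 122 to 148 RPKM in the 6 later libraries, without overlap.

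Differences of goblet cell genes were mostly above 0 (19 of 22 tested), while their summed level overlapped with day 1. Of 22 tested markers of these mucus-secreting cells, 12 were higher and 0 lower at an unadjusted p under 0.05 in limma, 7 were higher in all 6 later libraries and the median log2 difference was 0.80. Of all genes, 3.16% were higher and 1.85% lower at that p, and 2.16% were higher without overlap. Among the 12 were Ccl9, Tpsg1, Rep15, Klk1 and Ern2, with day 1 means of 0.151, 0.383, 0.495, 0.587 and 0.6495 RPKM. They could pass the filter of 1 RPKM only with later libraries, so part of both counts follows from the filter. Ccl9, Rep15 and Ern2 were also among the 7. The median ranged from 0.54 to 1.18 over the alternative fits. Clca1, a secreted protein of mucus, was at 4.49, 8.55 and 4.11 RPKM at day 1, at 14.1, 18.1 and 18.9 at day 2 and at 24.6, 10.2 and 35.4 at day 3 (1.61 ± 0.35, adjusted p = 0.439). Spdef, the transcription factor that matures goblet cells, was at 1.35, 1.45 and 1.23 RPKM at day 1 and between 2.64 and 7.22 later (1.17 ± 0.27). Creb3l1, a transcription factor of the secretory route, was at 1.4 ± 0.269 and 4.45 ± 1.92 RPKM (1.12 ± 0.27). Rep15, a Rab15-binding protein, was at 0.415, 0.506 and 0.564 RPKM at day 1 and at 0.728 to 4.29 later, with the lowest of these in day 3 replicate 2. The gel-forming mucin Muc2 was low throughout, at 0.92 ± 0.442 and 1.75 ± 1.79 RPKM (0.32 ± 0.44). The 3 differences below 0 were those of Zg16, Foxa3 and S100a6, at -0.126, -0.177 and -0.265. The summed level of 24 list members was 893 to 1826 RPKM at day 1, 1253 to 2079 at day 2 and 1533 to 2155 at day 3. Gip, Neurog3, Insm1, Nkx2-2, Sct, Muc2, Ccl9, Tpsg1, Klk1, Zg16, Foxa3 and S100a6 were named after their values were seen.

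Other secretory lineages were mixed. Of 12 tested transcription factors of secretory cells, 5 were higher at an unadjusted p under 0.05 (3.16% of all genes) and the median was 0.35, but it was -0.10 with the filter at 5 RPKM, which drops most of them. Bhlha15 (Mist1), a factor of cells with a large secretory load, was at 0.391 ± 0.0761 and 1.44 ± 0.762 RPKM. Of 14 tested Paneth cell markers, 12 differences were above 0, and 1 had an unadjusted p under 0.05 in limma (5.01% of all genes). The median was 0.52 (0.18 to 0.84 over the alternative fits). By day the median was -0.06 at day 2 and 1.00 at day 3. Mmp7, the protease that activates defensins, was at 3.86 ± 1.68 and 11.1 ± 9.34 RPKM (1.03 ± 0.49). Only 4 of 20 tuft cell markers were tested, with a median of 0.08.

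Enterocyte markers split by library more than by day. Of 34 tested, 22 differences were above 0 and 1 was past an unadjusted p of 0.05 in limma (5.01% of all genes). The median of 0.25 ranged from -0.26 to 0.52 over the alternative fits. Slc2a5, the fructose transporter, was at 1.83, 2.56 and 6.74 RPKM at day 1, at 10.3, 25 and 5.93 at day 2 and at 35.1, 3.92 and 17.3 at day 3 (1.68 ± 0.64, adjusted p = 0.909). Krt20, a keratin of mature cells, was at 397 ± 220 and 178 ± 98.8 RPKM, and Anpep, a brush border peptidase, at 78.6 ± 48.7 and 38.4 ± 30.3 RPKM. Among 27 tested intestinal transcription factors the median was 0.14. Isx, Cdx1 and Hnf4a were the 3 that were higher in all later libraries, where 2.16% of all genes were. Hnf4a, a nuclear receptor of the epithelium, was at 171 ± 11.3 and 206 ± 13.3 RPKM (0.27 ± 0.12).

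Differences of actin genes, YAP targets and genes of regenerating epithelium were mostly below 0. Of 29 tested actin and contractility genes other than Acta1, 27 differences were below 0 and 2 above (46.2% of all genes). The median was -0.21. At an unadjusted p under 0.05 in limma, 3 were lower and 0 higher, where 1.85% and 3.16% of all genes were. Actb, cytoplasmic beta-actin, was at 743, 1189 and 1284 RPKM at day 1, at 643, 900 and 779 at day 2 and at 481, 974 and 594 at day 3 (-0.56 ± 0.27, adjusted p = 0.961). Actg1 was at 6 ± 1.09 and 4.07 ± 0.843 RPKM, and is uncertain because it has near-identical copies in the genome. Of 17 tested targets of YAP, the co-activator that reads cell shape and tension, 16 differences were below 0 and the median was -0.29, with a range of -0.41 to -0.10 over the alternative fits. Cyr61 (Ccn1), a secreted matrix protein, was at 4.04, 8.08 and 5 RPKM at day 1, at 1.74, 1.5 and 4.49 at day 2 and at 0.591, 2.68 and 2.29 at day 3 (-1.12 ± 0.35, adjusted p = 0.739). Ajuba, a LIM protein, was at 23.9 ± 5.66 and 11.1 ± 7.71 RPKM, with 22.1 RPKM in day 2 replicate 3. Edn1, endothelin, was at 3.63 ± 0.742 and 1.94 ± 1.06 RPKM. The 12 tested YAP and Hippo components had a median of 0.04.

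Markers of fetal or regenerating epithelium had a median of -0.38 over 25 tested genes, none of them at an unadjusted p under 0.05 in limma, and the median ranged from -0.58 to 0.05 over the alternative fits. Areg, an EGF receptor ligand, was at 75.2, 173 and 153 RPKM at day 1, at 32.6, 54 and 89.6 at day 2 and at 13, 213 and 45.7 at day 3. The 213 RPKM of day 3 replicate 2 was the highest of all 9. Anxa2, an annexin, was at 647 ± 213 and 380 ± 150 RPKM. Of 17 tested integrins and laminins the median was -0.17, and Itgb6, an epithelial integrin, was at 7.46 ± 2.3 and 3.39 ± 1.58 RPKM (-0.99 ± 0.31).

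Growth factor readouts went in both directions. Of 8 tested genes of a BMP list that holds targets, a ligand and receptors, 6 differences were below 0 and the median was -0.36. The 2 above 0 were the receptors Bmpr1a and Bmpr2, at 0.22 and 0.02. Id2, an inhibitor of helix-loop-helix factors, was at 8.32, 10.3 and 6.89 RPKM at day 1, at 3.1, 3.96 and 6.12 at day 2 and at 2.42, 5.72 and 4.28 at day 3, all below day 1 (-0.88 ± 0.25, adjusted p = 0.668). Id3 and Id1 had differences of -0.72 ± 0.24 and -0.47 ± 0.28. Of 23 tested genes of the EGF receptor and of ERK feedback the median was -0.08. Erbb2, a receptor of that family, was at 16.4, 16.6 and 17.9 RPKM at day 1 and between 21.2 and 27.2 later (0.48 ± 0.12, adjusted p = 0.576), Erbb3 at 16.9 ± 3.73 and 28.4 ± 11 RPKM, while the ligand Hbegf was at 9.42 ± 1.9 and 4.69 ± 2.25 RPKM. Of 19 tested immediate early genes 17 differences were below 0 and the median was -0.36. Klf6, Atf3 and Egr1 had differences of -0.77, -0.68 and -0.68. The antiproliferative gene Btg2 was at 13.4 ± 4.04 and 21.8 ± 4.42 RPKM (0.68 ± 0.22). Nfkbia, the inhibitor of NF-kB, was at 25.5 ± 2.79 and 40.7 ± 8.85 RPKM, higher in all later libraries (0.63 ± 0.19), and the 12 tested chemokine and NF-kB genes had a median of 0.17.

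Differences of lipid synthesis genes were mostly small and above 0. All 26 members of the cholesterol synthesis list were tested. The difference was above 0 for 24 of them (46.2% of all genes), 9 were higher and 0 lower at an unadjusted p under 0.05 in limma, 5 were higher in all later libraries and the median was 0.34. The shares of all genes were 3.16% higher, 1.85% lower and 2.16% higher without overlap. Tm7sf2, a sterol reductase, was at 12.6, 16.3 and 14.2 RPKM at day 1, at 21, 20.1 and 20.7 at day 2 and at 24.8, 18.8 and 24.7 at day 3 (0.56 ± 0.13, adjusted p = 0.474). Acat2, which joins acetyl-CoA at the entry of the pathway, was at 35.1, 34.4 and 36 RPKM at day 1 and between 42.1 and 61.9 later (0.56 ± 0.14). Mvd, mevalonate decarboxylase, and Lss, which closes the sterol rings, had differences of 0.57 ± 0.16 and 0.49 ± 0.14. Of 13 tested genes of fatty acid synthesis 11 differences were above 0 and the median was 0.34. The desaturases Fads2, Scd2 and Scd1 had differences of 0.69, 0.42 and 0.75. Day 3 replicate 2 was low for the cholesterol list (-0.21 in its centred mean, against 0.00 to 0.35 in the other later libraries and -0.32 to -0.05 at day 1).

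Of the stress response lists, those of the unfolded protein response, NRF2, ATF4 and p53 had medians above 0, while heat shock genes (13 tested, 12 below 0, median -0.14) and metallothionein and zinc genes (9 tested, median -0.16) lay below. All 25 genes of the unfolded protein response list were above 0 (46.2% of all genes), 5 of them higher at an unadjusted p under 0.05 (3.16% of all genes), with a median of 0.26. The libraries were uneven. In the centred mean of this list day 3 replicate 2 was at -0.22, inside the range of day 1 (-0.27 to -0.15). Day 2 replicate 3 was at -0.11, and the other later libraries were at 0.20 to 0.31. Herpud1, which helps clear proteins from the endoplasmic reticulum, was at 29.8, 29.1 and 31.3 RPKM at day 1, at 42.8, 55.8 and 40.2 at day 2 and at 63.3, 49.4 and 46.5 at day 3 (0.69 ± 0.15, adjusted p = 0.427). Ern2, a sensor of that response in goblet cells and a member of the goblet list too, was at 0.649 ± 0.126 and 2.26 ± 1.14 RPKM. Xbp1, its transcription factor, was at 56.9 ± 6.74 and 78.6 ± 13.5 RPKM. Of 26 tested genes of the oxidant response through NRF2 the median was 0.31. Gsr, glutathione reductase, was at 117, 91.3 and 122 RPKM at day 1 and between 139 and 175 later (0.52 ± 0.15), Gclc, which starts glutathione synthesis, at 40.5 ± 14 and 84.3 ± 34.9 RPKM, and Nfe2l2 (NRF2 itself) at 72.7 ± 1.06 and 95.5 ± 14.1 RPKM.

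Other stress lists were uneven between libraries or between their genes. Of 30 tested ATF4 targets 27 differences were above 0 with a median of 0.27, which was 0.00 with the organoid line as a factor and 0.02 without day 3 replicate 2. Day 3 replicate 2 had a centred mean of 1.26 for this list, while the other 8 libraries were between -0.38 and 0.11. Chac1, which degrades glutathione, was at 26.6 RPKM in that library and between 3.18 and 7.68 in the other 5 later ones. Cth and Cebpb had differences of 1.04 ± 0.45 and 0.66 ± 0.28. Of 22 tested p53 targets the median was 0.20 (0.06 to 0.39 over the alternative fits), with Trp53inp1 at 2.36 ± 0.694 and 5.16 ± 1.57 RPKM and the death gene Bbc3 at 2.29 ± 0.119 and 4.05 ± 0.984 RPKM. Cyp1a1, the classical target of the aryl hydrocarbon receptor, was at 78.1, 194 and 154 RPKM at day 1, at 22.4, 92.1 and 55.7 at day 2 and at 5.72, 56.5 and 47.5 at day 3. Replicate 1 was lowest at each day (-1.88 ± 0.70, adjusted p = 0.897). Nqo1, shared by that receptor and NRF2, was at 74.8 ± 29.3 and 125 ± 43.2 RPKM. The 29 tested hypoxia and glycolysis genes had a median of 0.04, and Pfkfb3, which speeds glycolysis, a difference of -0.82 ± 0.34.

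Differences of cell cycle genes were small and below 0 in nearly every member. Of 37 S phase genes, all tested, 36 differences were below 0 with a median of -0.30, and of 39 genes of G2 and mitosis 37 were, with a median of -0.19. At an unadjusted p under 0.05, 2 and 1 of them were lower, where 1.85% of all genes were, and 46.2% of all genes lay above 0. Rrm2, a subunit of ribonucleotide reductase, was at 107, 83.2 and 101 RPKM at day 1, at 95.8, 53.3 and 65.3 at day 2 and at 34.7, 58.2 and 59.8 at day 3 (-0.71 ± 0.23, adjusted p = 0.739). Cdc6, which loads the replication helicase, was at 8.06 ± 0.149 and 5.47 ± 1.84 RPKM, and Anln, a protein of the cleavage furrow, at 17.6 ± 3.63 and 12.6 ± 2.68 RPKM. Without day 2 replicate 2 and day 3 replicate 1 these medians were -0.04 and -0.06. Members of such lists share the state of each library, so their number does not stand for independent evidence. The 41 tested ribosomal protein genes had a median of 0.04.

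**Figure D4:**
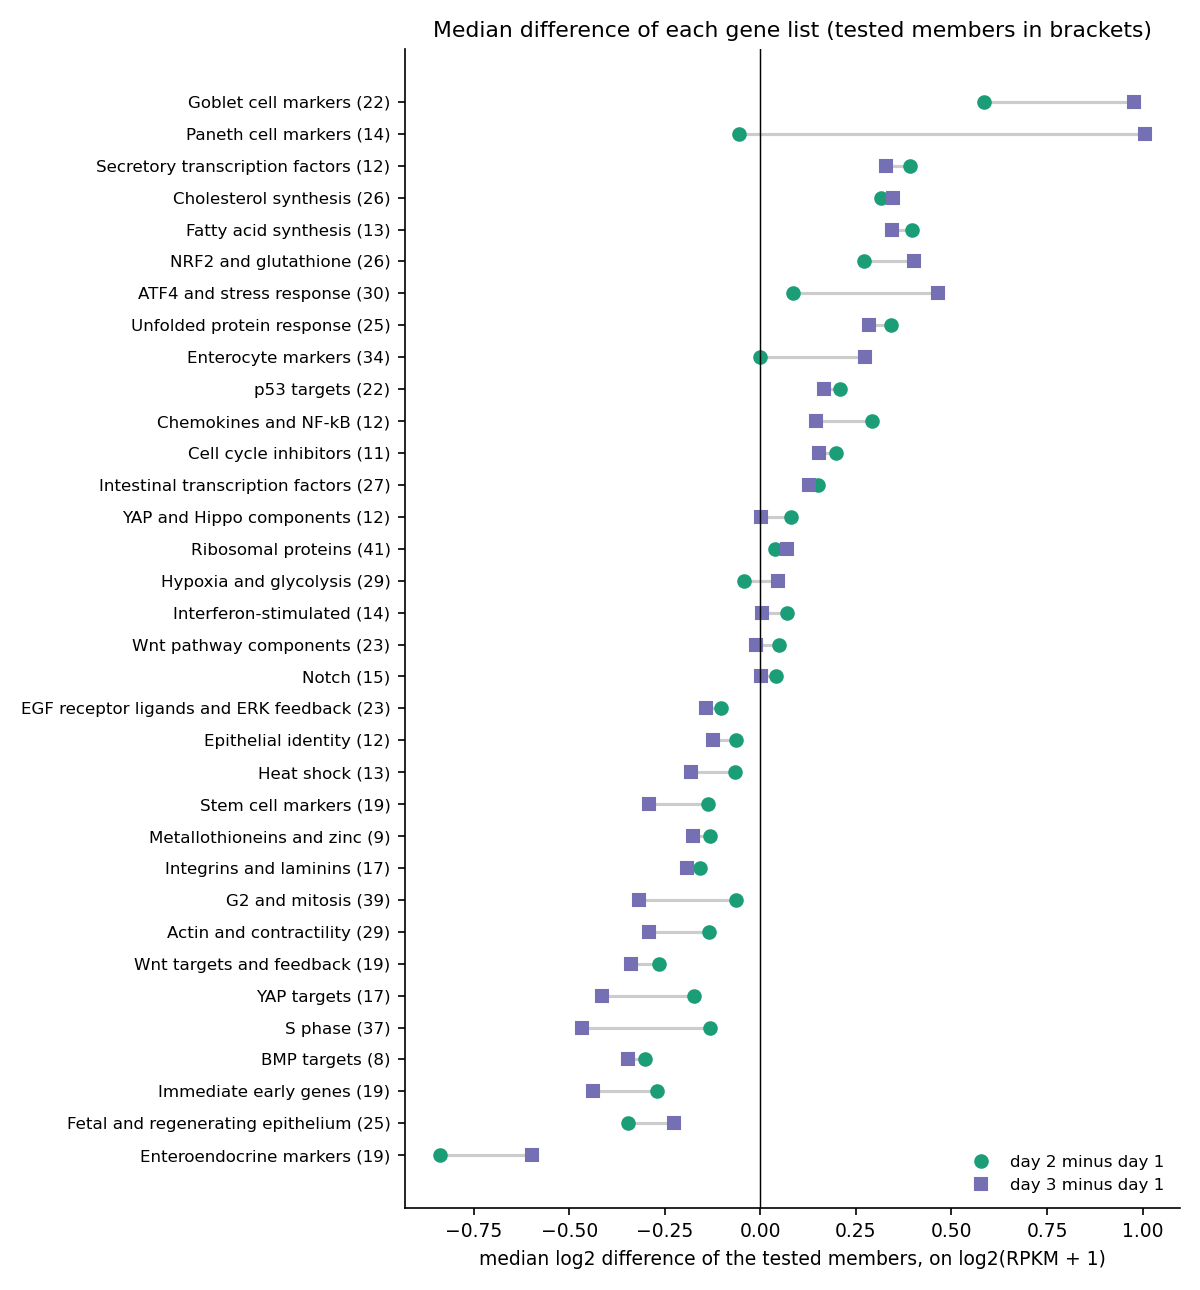
Median log2 difference from day 1 over the tested members of each list with at least 8 of them (number in brackets), for day 2 (circles) and day 3 (squares). Goblet markers lie at 0.58 and 0.98 and enteroendocrine markers at -0.84 and -0.60, while Paneth markers are at -0.06 at day 2 and 1.00 at day 3.

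Each day was also compared with day 1 on its own, with the same libraries of day 1 in both comparisons. For day 2 there were 0 genes past the adjusted threshold in limma (0%), 234 at an unadjusted p under 0.05 (2.2%) and a lowest adjusted p of 1. For day 3 there were 0 (0%), 613 (5.76%) and 0.339. With the organoid line as a factor the count for day 3 was 16, and it was 7 without day 3 replicate 2, with Isx, Dmbt1, Lipg, Rep15, Spink4 and Gm1123 higher and Acta1 lower. Spink4, a trypsin inhibitor of goblet cells, was named for this call after its values were seen.

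Between day 2 and day 3 the medium stayed the same, and Paneth cell genes had the largest list median. In limma 0 genes passed (0%), 42 had an unadjusted p under 0.05 (0.394%), and 69 genes were higher (0.648%) and 96 lower (0.902%) at day 3 without overlap. Of the 14 tested Paneth markers 13 were above 0 and 7 were higher and 0 lower at an unadjusted p under 0.05, where 0.216% and 0.178% of all genes were, with a median log2 difference of 1.08. Paneth cells secrete antimicrobial proteins at the crypt base. Ang4, an antimicrobial ribonuclease, was at 9.8, 4.78 and 14.1 RPKM at day 2 and at 26.2, 23.8 and 30.1 at day 3 (1.49 ± 0.32, adjusted p = 1), and at 7.31 to 11.4 at day 1. Defa24, an alpha-defensin, was at 48.9, 22.2 and 48.2 RPKM at day 2 and at 312, 62.9 and 308 at day 3 (2.25 ± 0.61). Replicate 2 of day 3 was again far below the other 2. Defensins are a family of near-identical genes, and their reads may be shared between copies. Reg4, a secreted lectin, was at 33.8 ± 7.28 and 52.9 ± 8.48 RPKM, close at day 3 to its 44.4 ± 3.59 at day 1.

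The other genes named for this step were Gsta3, a glutathione transferase, at 73.1 ± 13.5 and 136 ± 27.8 RPKM (0.88 ± 0.28), and Mocs1, an enzyme of the molybdenum cofactor, at 20.1 ± 3.11 and 28.4 ± 3.32 RPKM. Lower at day 3 were Egr1, an immediate early transcription factor, at 11.5 ± 0.65 and 6.79 ± 1.66 RPKM (-0.70 ± 0.27), and Tmsb4x, thymosin beta-4, which binds free actin, at 734 ± 81.4 and 550 ± 122 RPKM (-0.43 ± 0.22). Smaller differences were those of Dlgap5, a spindle protein, at -0.32, B4galt6, a galactosyltransferase, at -0.33, and Scly, selenocysteine lyase, at -0.27. S phase genes had a median of -0.34 for this step.

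The levels on the other days place these genes in the time course, and they are given side by side with no test. Isx was at 0.0504 ± 0.0252 RPKM (n = 3) at day 0, 98.7 ± 39.9 at day 4 and 112 ± 46.5 at day 5, and its 0.71 ± 0.747 at day 1 lay between. Dmbt1 was at 58 ± 23.6 RPKM at day 0, above its 11.3 ± 4.12 at day 1, and at 270 ± 77.7 and 186 ± 44.9 at days 4 and 5. Acta1 was at 77.1, 36 and 12.5 RPKM at day 0 and at 16.3 ± 6.63 and 18.8 ± 6.47 at days 4 and 5, and in each of the 15 libraries of other days it was below the lowest library of day 1. Cyp1a1 also had its highest mean at day 1, with 1 ± 0.731 RPKM at day 0 and 0.669 ± 0.295 at day 5. Its day 2 replicate 2, however, was above the lowest library of day 1. Chga was at 23 ± 10.7 RPKM at day 0, 8.46 ± 2.53 at day 4 and 17.2 ± 1.59 at day 5. Its low levels thus lay at days 2 to 4. Clca1 was at 0.27 ± 0.274 RPKM at day 0 and 35.2 ± 19.5 at day 5, and Ang4 at 3.5 ± 1.58 and 86.4 ± 32 RPKM. Nrarp was at 17, 5.81 and 7.35 RPKM at day 0 and 11 ± 0.333 at day 5, and had its lowest mean at day 1.

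**Figure D5:**
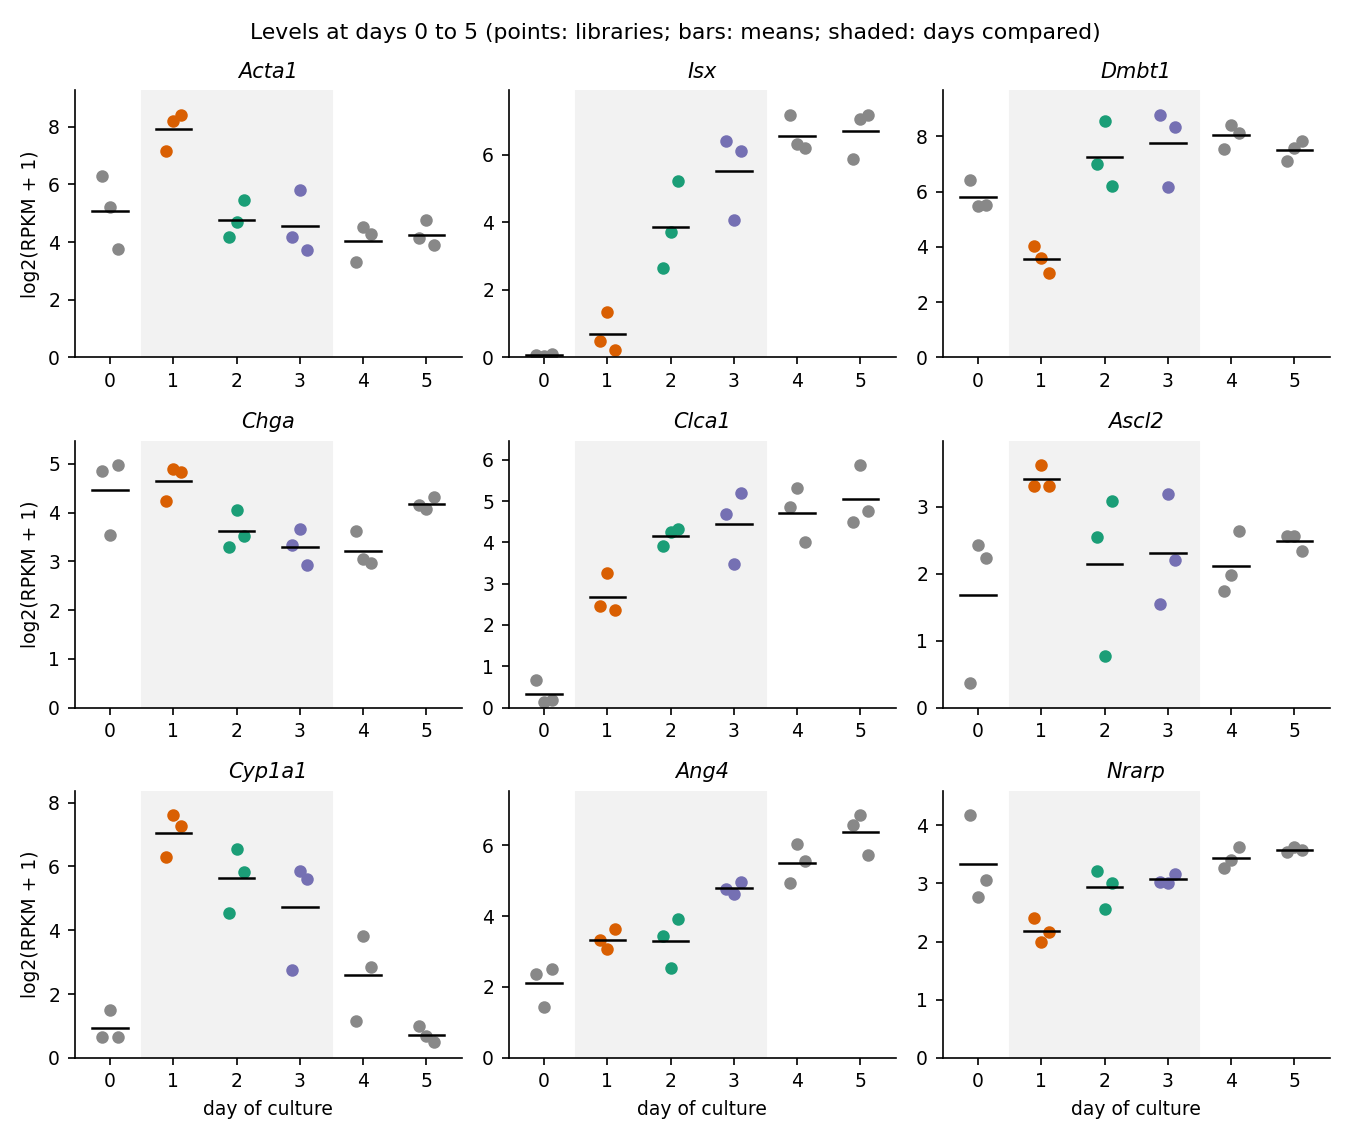
Levels of 9 genes at days 0 to 5, with the day on the x axis and log2(RPKM + 1) on the y axis. Points are libraries, bars the mean of 3 libraries, and the shaded band marks the days compared. Acta1 and Cyp1a1 peak at day 1, Isx and Clca1 are near 0 at day 0 and higher on each later day by their means, and Chga is lowest at days 3 and 4.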

How the data were processed

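RNA of pooled organoid wells was sequenced from TruSeq mRNA libraries, per the labels' protocols. The authors deposited 1 table of RPKM for 24116 genes. Per the submitters' processing notes, bcl2fastq 2.17, STAR 2.5.2b and edgeR 3.20.5 were used with build mm10, while the sources used here do not give the annotation, the strand setting or the treatment of multiply matching reads. Depth was recovered from the steps of low RPKM values. Here log2(RPKM + 1) of the 10648 genes that reached 1 RPKM in 3 or more of the 9 libraries was fitted with limma 3.58.1 (R 4.3.3, eBayes with trend) with a coefficient for each day, two-sided, with Benjamini-Hochberg adjustment over all tested genes and a threshold of 0.05. Fold changes on this scale understate changes of genes with low values. The fit was tested on simulated data. Nothing in the labels says that libraries were separate cultures, and p-values measure the spread between them. The members and the 42 gene lists were chosen with earlier results of these data known. Since no gene passed, named genes were the 12 with the lowest p in each direction whose groups did not overlap and whose higher mean was at least 5 RPKM, Wnt targets at that level, up to 4 genes of lowest p from each other list and 5 per direction for day 3 against day 2. Alternatives were other sets of libraries, the replicate number as a block, the organoid line, pseudocount, filters, scaling and array weights. The numbers of the 3 replicates were not taken as pairs, since the titles give replicate 2 of day 3 another mouse.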

Additional observations from a re-analysis of the deposited data

How the results depend on the processing

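For days 2 and 3 against day 1 the count of genes past the threshold, 0 here, was 6 with all 18 libraries, 5 with the organoid line as a factor and 37 with array weights (26 higher, 11 lower), where day 3 replicate 3 had a weight of 6.99 and the others 0.35 to 2.19. For day 3 against day 1 these counts were 4, 16 and 190. Array weights gave 1 call for day 3 against day 2. With no filter, Defb14 was the 1 call for day 2 against day 1 and for day 3 against day 2, with log2 differences of only 0.087 and -0.087. Leaving out 1 library gave 0 to 6 calls for days 2 and 3 against day 1 (6 without day 3 replicate 2, 1 without day 1 replicate 1), 0 to 7 for day 3 against day 1 and 0 for the others. The count stayed 0 in all 4 comparisons with a pseudocount of 0.1, the filter at 5 RPKM, median-of-ratios rescaling, quantile normalization, the 6 DNase-treated libraries and, chosen after seeing the data, without day 2 replicate 2 and day 3 replicate 1 together. One coefficient for days 2 and 3 gave 0 for their comparison with day 1. At an unadjusted p under 0.05 that comparison had 264 genes without day 1 replicate 2 and 921 without day 3 replicate 2, against 533. The cause of these shifts was not tested.

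With the replicate number as a block the count was 0 in all 4 comparisons. Deviations of same-numbered libraries correlated from -0.525 to 0.748, with 4 of 9 pairs above 0.1, and day 1 replicate 2 correlated best with day 2 replicate 3 (0.619) and day 1 replicate 3 with day 2 replicate 2 (0.677). The best matches of replicates 2 and 3 between these days thus lay across the numbers. Whether numbers or titles were exchanged was not tested, and the block and the line factor take both as labelled.

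Of 2475 values for named genes under alternatives, 2422 kept their direction and side of the threshold, 36 came past it and 17 turned direction without passing it. Leaving out 1 library each gave -0.35 to 0.07 for Myc, -0.49 to 0.02 for Rgmb, -0.02 to 1.08 for Smoc2, -0.03 to 0.02 for Cdh1 and -0.01 to 0.21 for Cdx2. The turns lay without day 2 replicate 2 or day 3 replicate 1 for Myc, day 1 replicate 1 or day 2 replicate 2 for Rgmb, day 1 replicate 3 for Smoc2, day 2 replicate 1 or day 3 replicate 1 (0.00) for Cdh1 and day 1 replicate 2 for Cdx2. Without day 2 replicate 2 and day 3 replicate 1 together, Myc was at 0.29 and Rgmb at 0.09. With array weights Myc was at 0.02, Rgmb at 0.04 and Cdh1 at 0.02. In the DNase-treated libraries Rgmb was at 0.04, Ephb2 at 0.01 and Cdh1 at 0.02, and with rescaling Cdh1 was at 0.01.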

Other observations

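The 4 tested nuclear noncoding RNAs were all below 0 at days 2 and 3, with a median log2 difference of -0.59 (-0.86 to -0.30 over the alternative fits), and their levels also differed by replicate. Malat1 was at 7.57, 2.85 and 4.34 RPKM in replicate 1 of days 1, 2 and 3, the libraries without DNase treatment, and at 13.6 to 23.7 RPKM in the 6 treated ones. Neat1 was at 10.2, 5.63 and 6.49 RPKM in replicate 1 and at 26.7 to 58 RPKM in the treated libraries. Replicate 2 of days 1 and 2, titled mouse 1 like replicate 1, had 22.5 and 14 RPKM of Malat1, and whether these titles hold a slip cannot be told from the labels. For both RNAs no value of replicate 1 in days 1 to 3 reached the lowest of the treated libraries of these days. Day 0 went the other way, although its replicate 1 had no DNase treatment either. Malat1 was there at 17.06 RPKM in replicate 1 and at 13.2 and 10.17 in the treated libraries. Neat1 was likewise highest in replicate 1 of that day. At days 4 and 5 replicate 1, again untreated, was the lowest of its day for both RNAs. The part of the DNase step or of RNA handling in these differences was not tested. Day 3 replicate 2 was the 1 library titled mouse 2 in days 1 to 3. Of these 9 libraries it was the highest in the ATF4 list and in fetal markers (centred mean 1.15). It was the lowest of day 3 in Isx, Dmbt1, Defa24 and Rep15.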
